A study of Mus musculus with 68 samples.

Results

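The receptors for steroid hormones were followed through 6 genes of the mouse uterus: Esr1 (oestrogen receptor alpha, ERα), Esr2 (oestrogen receptor beta), Gper1 (the membrane oestrogen receptor GPER), Pgr (the progesterone receptor), Nr3c1 (the glucocorticoid receptor) and Nr3c2 (the mineralocorticoid receptor). They were chosen by symbol, 6 of the 30664 genes measured, with earlier results of these data known. Each gene had 1 probe set, the group of array probes summarised as 1 value. The probe set of Gper1 also carries Gpr30, an older symbol of the same gene.

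RNA came from uteri of ovariectomized mice, which lack their main source of ovarian steroids, and each of 68 arrays measured 1 sample. There were 25 groups, 18 of 3 arrays and 7 of 2. The study compared the response to oestradiol (E2), the steroid ligand of the oestrogen receptors, with the response to insulin-like growth factor 1 (IGF1), a peptide hormone, in mice with and without ERα. The 3 mouse sets were C57Bl6 wild types from a supplier (14 arrays), Ex3aERKO mice, which are null for Esr1, with wild-type littermates (25 arrays), and ERaUtcKO mice with wild-type littermates (29 arrays). ERaUtcKO mice carry a floxed Esr1 gene and Cre recombinase from the Pgr gene (Esr1f/f;PgrCre+), so that recombination follows cells in which Pgr is or was active. The labels do not give the littermates' alleles. Mice received vehicle (100 ul of saline), 250 ng of E2, or IGF1, as 50 ug by injection or from an implanted pump filled at 0.5 mg/ml for 3 days, and the labels do not say which mouse had which route. Tissue was taken at 2 h or 24 h for each hormone, but only at 24 h for vehicle. Each 2 h response set against vehicle therefore also spans a difference in time, and hormone and time cannot be told apart in it.

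A group of 2 arrays had lost an array, which the authors left out as an outlier by principal component analysis, so its spread may be understated. Replicates were taken as labelled, and p-values measure the spread between these samples. All values below are on the deposited log2 scale, where a difference of 1 is a doubling, and responses are given as log2 differences ± the standard error. Tests used limma, and a gene was called changed at a Benjamini-Hochberg adjusted p under 0.05 over 30664 genes. The arrays measured whole tissue, in which fewer cells of a type and less RNA per cell cannot be told apart.

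Steroid receptors are transcription factors that wait in the cell with chaperones such as HSP90 and its partner immunophilins, bind their ligand, and then act on hormone response elements in DNA together with coactivators and corepressors. GPER is a G protein-coupled receptor instead and signals from membranes. In the uterus, ERα carries the growth response to E2 and raises the progesterone receptor, a classical readout of oestrogen action. The glucocorticoid and mineralocorticoid receptors both bind corticosteroids, and the enzyme HSD11B2, which inactivates glucocorticoids, decides in many epithelia which ligand reaches the mineralocorticoid receptor.

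RefSeq promoter windows (assembly GRCm38.p6) matched 5 of the 6 genes, and the 2 shown belong to the genes with the largest rise and the largest fall among the receptors in the wild types. They are the 250 bases before a transcript start of Pgr (chr9:8899583-8899832, plus strand) and of Nr3c2 (chr8:76902080-76902329, plus strand), printed 5′ to 3′. Capitals mark the oestrogen response half-site GGTCA and the SP1 element GGGCGG, on either strand (TGACC and CCGCCC when read on the plus strand).
Pgr: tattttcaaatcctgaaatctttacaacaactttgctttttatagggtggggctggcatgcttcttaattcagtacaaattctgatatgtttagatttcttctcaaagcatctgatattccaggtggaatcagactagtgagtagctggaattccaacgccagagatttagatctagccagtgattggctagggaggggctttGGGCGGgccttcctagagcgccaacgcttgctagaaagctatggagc
Nr3c2: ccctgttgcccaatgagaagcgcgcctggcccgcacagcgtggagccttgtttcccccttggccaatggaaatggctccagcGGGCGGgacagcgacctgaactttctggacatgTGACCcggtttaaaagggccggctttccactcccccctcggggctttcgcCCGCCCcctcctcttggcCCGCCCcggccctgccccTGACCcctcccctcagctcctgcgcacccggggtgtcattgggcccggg
The Pgr window held 1 SP1 element and no half-site, and the Nr3c2 window held 3 SP1 elements and 2 half-sites. Of 32851 windows of this length, 32.7% held GGGCGG and 35.2% held GGTCA, so either match is common. The full oestrogen response element, GGTCA and TGACC with any 3 bases between, occurred in 0.0639% of windows. The full progesterone and glucocorticoid response element, AGAACA and TGTTCT with any 3 bases between, occurred in 0.00913%. Neither was in any of the 6 windows of Esr1 (which has 2), Esr2, Gper1, Pgr and Nr3c2.

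The receptors differed in how far they stood above the background of the arrays. This was taken on each array as the 95th percentile of the 23 antigenomic probe sets, which serve as negative controls. Esr1, Pgr, Nr3c1 and Nr3c2 were above it on every array. Gper1 was above it on all 25 and 29 arrays of the 2 knockout sets but on only 3 of the 14 C57 arrays. Esr2 was above it on none of the 68 arrays. Its lowest and highest values were 5.41 and 5.74 in C57 mice, 4.44 and 4.96 in the Ex3aERKO set and 4.64 and 5.06 in the ERaUtcKO set. They lay below background limits of 6.74, 5.64 and 5.76, the 95th percentiles of the controls averaged over each set. By that limit Gper1 was below background on all C57 arrays, where it ran from 6.04 to 6.55. Levels and differences of Esr2 are therefore not read as expression here. Esr2 still stands among the 6 in the counts and medians below.

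Across the 42 wild-type arrays, with mouse set as a term in the model, the receptor genes that were called mostly fell. At 2 h after E2, 1 of the 6 rose (Pgr) and 4 fell (Esr1, Gper1, Nr3c1 and Nr3c2), where 39.8% of all genes were called, 17.1% as higher and 22.7% as lower. At 24 h after E2, Pgr rose and Esr1, Nr3c1 and Nr3c2 fell, with 56.2% of genes called, 24.3% higher and 31.9% lower. IGF1 was followed by no rise and by falls of Esr1, Nr3c1 and Nr3c2 at 2 h (35.7% of genes called, 16.8% higher and 18.9% lower) and of Nr3c1 and Nr3c2 at 24 h (40.8%, 19.1% higher and 21.7% lower). The median difference of the 6 was -0.44, -0.21, -0.28 and -0.11 in these 4 responses, beside -0.05, -0.07, -0.04 and -0.06 over all genes. The 2 of 6 called at 24 h after IGF1 were no larger a share than the 40.8% of all genes. The 4 responses share their vehicle arrays.

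Esr1, the receptor that the 2 mutant lines lack in all or part of the uterus, was lowest in wild types shortly after E2. In the C57 mice it read 14.07, 13.95 and 13.65 with vehicle and 13.35, 13.51 and 13.21 at 2 h after E2. In the Ex3aERKO littermates it read 12.43 and 12.73 with vehicle and 11.44, 11.51 and 11.52 at 2 h after E2, and in the ERaUtcKO littermates 12.17, 12.25 and 12.24 against 11.86, 11.66 and 11.89. No array at 2 h after E2 overlapped its vehicle group in any of the 3 sets. A day after E2 the values were 13.51, 13.55 and 13.42 in C57 mice, 11.89, 12.03 and 12.09 in Ex3aERKO littermates, and 12.31, 12.23 and 12.39 in ERaUtcKO littermates. The 24 h arrays lay below vehicle in the first 2 of these sets and overlapped it in ERaUtcKO littermates, where Esr1 differed from vehicle by 0.09 and, with centred arrays, by 0.38 (adjusted p 0.014).

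The pooled fall of Esr1 at 2 h after E2 left 63.6% of the vehicle level, and the difference at 24 h was -0.27 ± 0.09 (adjusted p 0.00748). The latter was not called when each array was centred on its own median (-0.06, adjusted p 0.623) or without the C57 arrays (-0.20, adjusted p 0.109). Between the 2 times after E2, Esr1 was higher at 24 h by 0.39, a comparison in which 51.1% of genes were called. IGF1 was also followed by a lower Esr1 at 2 h (-0.45 ± 0.09, adjusted p 9.26e-05), and at 24 h the difference was -0.17 (adjusted p 0.10). Set by set, the E2 difference at 2 h was -0.53 in C57 mice (29.5% of genes called), -1.09 in Ex3aERKO littermates (46.9% of vehicle; 20.5% called) and -0.42 in ERaUtcKO littermates (32.0% called). The last was -0.25 (adjusted p 0.137) with centred arrays, and the gap between sets was not tested.

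**Figure D1:**
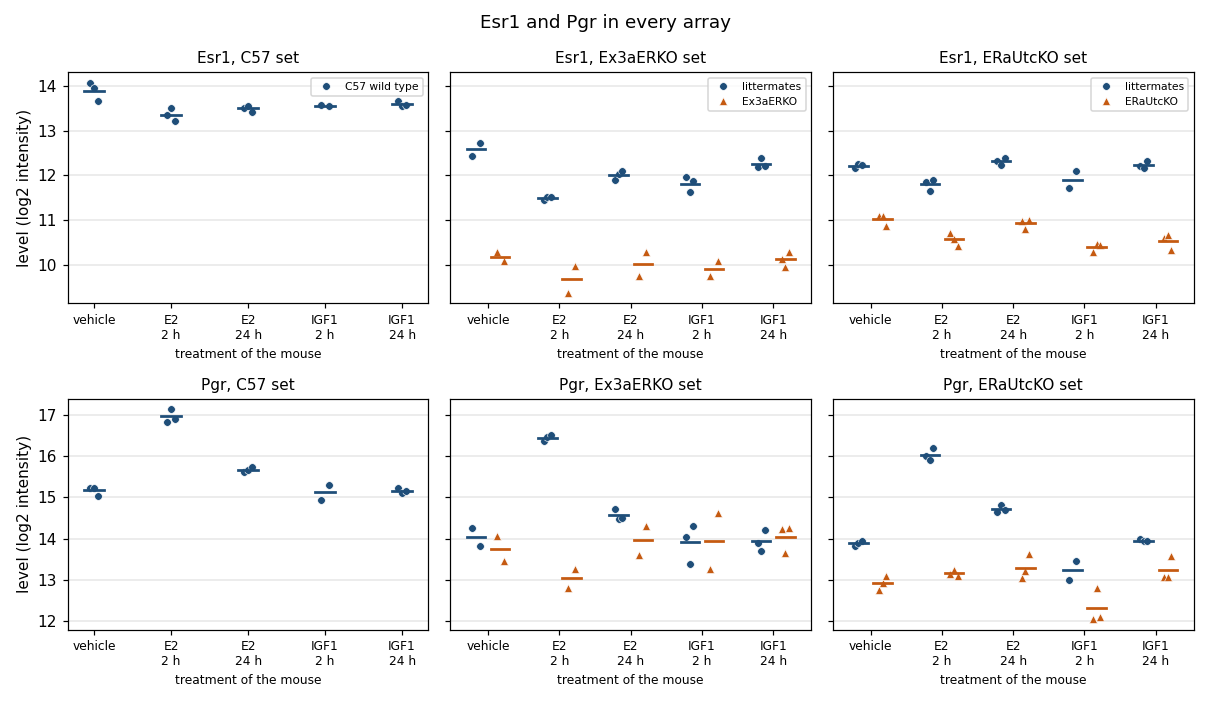
Deposited log2 level of Esr1 (upper panels) and Pgr (lower panels) on each array, by treatment and mouse set; blue circles are wild types, orange triangles knockouts and horizontal lines group means. Pgr stands highest in the wild-type groups at 2 h after E2 (means 16.95, 16.44 and 16.03), and every knockout group of Esr1 lies below every wild-type group of its set.

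The mutants kept a measurable Esr1 signal. In Ex3aERKO uteri Esr1 read 10.29 and 10.08 with vehicle, 9.38 and 9.98 at 2 h after E2, and 10.14, 9.95 and 10.28 at 24 h after IGF1. These values are far above the background limit of 5.64, and neighbouring groups in the order of the 5 knockout means, from 10.19 with vehicle to 9.68 at 2 h after E2, overlapped. Esr1 in Ex3aERKO mice was 19.0% of the littermate level with vehicle and between 22.7% and 28.6% in the 4 hormone groups. In ERaUtcKO mice it ran from 43.3% with vehicle to 31.0% at 24 h after IGF1, and 4.06% of all genes were called in the vehicle comparison of that line, 2.88% in that of Ex3aERKO. The probe positions within Esr1 are not given in the sources used here, so the remaining signal is no measure of functional receptor.

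In ERaUtcKO uteri the remaining Esr1 signal still moved. It read 11.09, 11.10 and 10.86 with vehicle, 10.28, 10.47 and 10.45 at 2 h after IGF1, and 10.60, 10.67 and 10.34 at 24 h after IGF1. Both IGF1 groups lay wholly below vehicle. The differences were -0.62 ± 0.11 at 2 h (65.1% of vehicle, adjusted p 9.5e-05; 29.1% of genes called) and -0.48 at 24 h (adjusted p 0.00143; 32.2% called), the latter -0.27 (adjusted p 0.0803) with centred arrays. In the littermates Esr1 at 24 h after IGF1 differed from vehicle by 0.00, and the difference between the 2 responses was -0.48 (adjusted p 0.263).

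Gper1 is the one receptor of the group that works at membranes, and its E2 response was the smallest of those called at 2 h. In the ERaUtcKO littermates it read 6.93, 6.91 and 6.83 with vehicle and 6.46, 6.59 and 6.58 at 2 h after E2. In the Ex3aERKO littermates it read 6.83 and 7.06 against 6.51, 6.57 and 6.26, and in C57 mice, mostly at background, 6.34, 6.40 and 6.39 against 6.04, 6.21 and 6.26. All 3 sets separated in the same direction. The pooled fall was -0.35 ± 0.07 (78.7% of vehicle, adjusted p 0.000149). After IGF1 the pooled differences were 0.04 at both times, with 95% intervals from -0.12 to 0.20 at 2 h and from -0.11 to 0.19 at 24 h. E2 and IGF1 differed for Gper1 at 2 h by -0.39 ± 0.08 (adjusted p 0.000107), where 21.8% of genes were called.

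**Figure D2:**
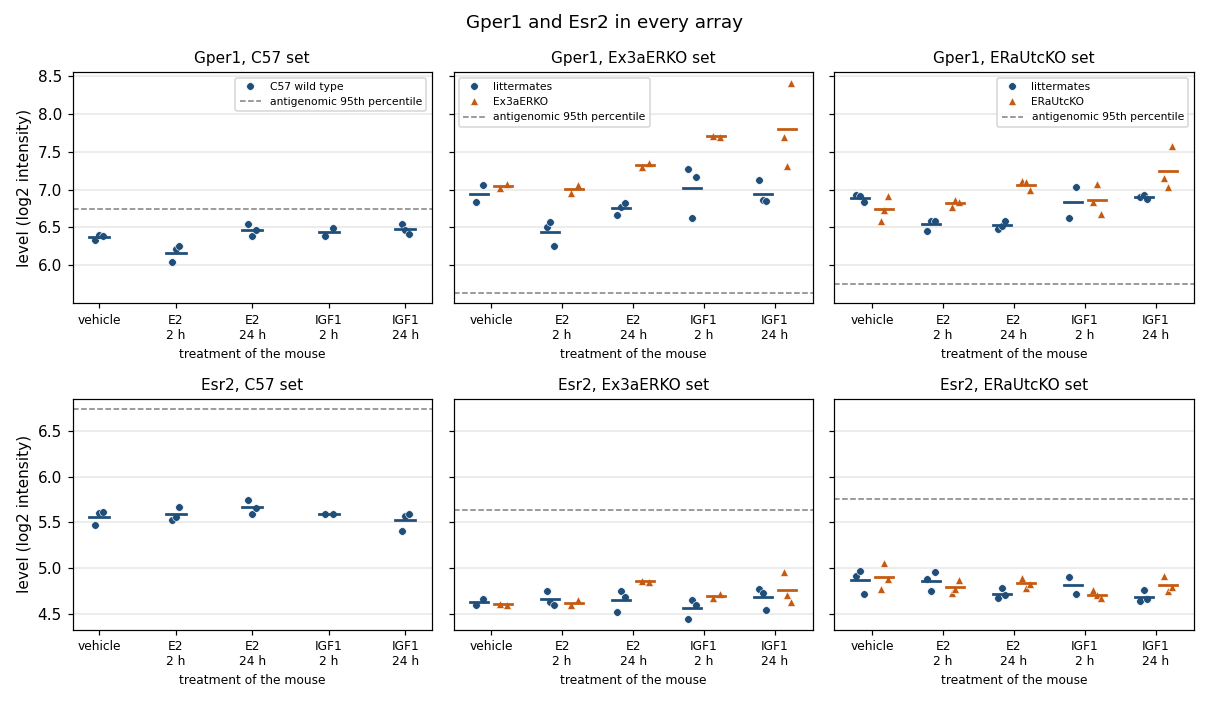
Deposited log2 level of Gper1 (upper panels) and Esr2 (lower panels) on each array, by treatment and mouse set. Blue circles are wild types, orange triangles knockouts and horizontal lines group means. The dashed line is the 95th percentile of the antigenomic controls, each averaged over the arrays of the set. Esr2 lies below the dashed line on all 68 arrays, while Gper1 reaches its highest group means, 7.80 and 7.25, in the knockouts at 24 h after IGF1.

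In both mutant lines Gper1 rose by 24 h after IGF1, and in Ex3aERKO mice that call rested on single arrays. In ERaUtcKO uteri it read 6.58, 6.73 and 6.91 with vehicle and 7.15, 7.03 and 7.57 at 24 h after IGF1, with no overlap (0.51 ± 0.12, 142% of vehicle, adjusted p 0.00199). In Ex3aERKO uteri it read 7.02 and 7.08 with vehicle, 7.71 and 7.70 at 2 h and 7.69, 7.31 and 8.41 at 24 h. The 24 h difference was 0.75 ± 0.22 (168% of vehicle, adjusted p 0.0238; 18.4% of genes called), with replicate 3 of the IGF1 group far above the others. Without that array it was 0.45 (adjusted p 0.108), and without vehicle replicate 2 or 3 it was 0.72 (adjusted p 0.158) or 0.78 (adjusted p 0.0843). The knockout and littermate responses of Gper1 at 24 h after IGF1 differed by 0.76 (95% interval 0.09 to 1.42, adjusted p 0.565) in the Ex3aERKO set and by 0.50 (0.15 to 0.85, adjusted p 0.287) in the ERaUtcKO set, neither of which was called.

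Pgr, which ERα induces in the uterus, gave the largest response of the 6 genes. In C57 mice it rose from 15.23, 15.23 and 15.03 with vehicle to 16.83, 17.13 and 16.90 at 2 h after E2. In Ex3aERKO littermates it rose from 14.26 and 13.83 to 16.37, 16.45 and 16.51, and in ERaUtcKO littermates from 13.81, 13.90 and 13.94 to 15.99, 15.89 and 16.20. The lowest E2 array stood above the highest vehicle array by more than 1 log2 unit in each set. At 24 h the values were 15.61, 15.67 and 15.73 in C57 mice, 14.71, 14.47 and 14.50 in Ex3aERKO littermates, and 14.64, 14.81 and 14.69 in ERaUtcKO littermates, still above every vehicle array of their sets.

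In fold terms Pgr at 2 h after E2 was 430% of vehicle over the 3 sets, and 526% in the Ex3aERKO littermates alone (2.39 ± 0.33). At 24 h it was 153% of vehicle (0.61 ± 0.12, adjusted p 2.85e-05), and the drop from 2 h to 24 h was -1.49. No rise followed IGF1: the pooled differences were -0.27 ± 0.13 at 2 h (adjusted p 0.0941) and -0.02 at 24 h (adjusted p 0.901). E2 and IGF1 differed by 2.38 ± 0.12 at 2 h (adjusted p 5.36e-19) and by 0.63 ± 0.11 at 24 h (adjusted p 3.13e-05), where 27.9% of genes were called. The ERaUtcKO littermates were lower at 2 h after IGF1 (13.01 and 13.46; -0.64, adjusted p 0.0192; 20.8% of genes called), a call that was lost without the first of these 2 arrays (-0.42, adjusted p 0.224).

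In the mutants no rise of Pgr was called after E2. In Ex3aERKO uteri it read 14.06 and 13.45 with vehicle and 12.81 and 13.27 at 2 h after E2, the lowest group of that set. In ERaUtcKO uteri it read 12.76, 12.92 and 13.10 with vehicle and 13.14, 13.25 and 13.09 at 2 h after E2, which overlap. The response in the mutant was smaller than in the littermates, with differences of -3.11 ± 0.49 in the Ex3aERKO set (adjusted p 0.000382; 9.35% of genes called) and -1.92 ± 0.24 in the ERaUtcKO set (adjusted p 6.99e-06; 13.7% called). At 2 h after E2 the Pgr level was thus 9.46% of that in littermates in Ex3aERKO mice and 13.7% in ERaUtcKO mice.

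Without hormone, the vehicle arrays of Ex3aERKO mice overlapped those of their littermates (difference -0.29, 95% interval -1.06 to 0.47), whereas those of ERaUtcKO mice all lay below (51.7% of the littermate level, -0.95, adjusted p 0.00181). The 2 differences come from separate fits, and the gap between them was not tested. ERaUtcKO mice carry Cre in connection with the Pgr gene, and the part of that allele in the Pgr level cannot be told apart from that of Esr1 loss. In ERaUtcKO mice Pgr also fell at 2 h after IGF1, from the vehicle values above to 12.05, 12.80 and 12.11 (65.5%, -0.61, adjusted p 0.00872), a call lost without IGF1 replicate 1 (-0.47, adjusted p 0.0656), IGF1 replicate 3 (-0.50, adjusted p 0.0566) or vehicle replicate 3 (-0.52, adjusted p 0.0515).

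Nr3c1, the glucocorticoid receptor, fell after both hormones in wild types, and most at 2 h after E2. In C57 mice it read 11.62, 11.60 and 11.35 with vehicle and 10.66, 10.75 and 10.62 at 2 h after E2. In Ex3aERKO littermates it read 10.42 and 10.26 against 8.93, 9.44 and 9.20, and in ERaUtcKO littermates 10.98, 10.86 and 11.07 against 10.11, 10.20 and 10.28. By mean, the vehicle group was the highest and the 2 h E2 group the lowest of all groups in each set, with no overlap between them. The pooled difference was -0.90 ± 0.06 (53.4% of vehicle, adjusted p 4.6e-16). By 24 h Nr3c1 stood at 70.0% of vehicle (-0.52 ± 0.06, adjusted p 1.39e-09), higher than at 2 h by 0.39.

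The response of Nr3c1 to IGF1 was smaller. The pooled difference was -0.29 ± 0.06 at 2 h (81.6% of vehicle, adjusted p 0.000267) and -0.19 ± 0.06 at 24 h (87.9%, adjusted p 0.0121). The 24 h call was lost with centred arrays (-0.05, adjusted p 0.576) and without the C57 arrays (-0.18, adjusted p 0.0854). E2 left Nr3c1 lower than IGF1 did by -0.61 ± 0.06 at 2 h (adjusted p 1.78e-10) and by -0.33 at 24 h (adjusted p 1.97e-05).

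In neither mutant line was a fall of Nr3c1 called after E2. In Ex3aERKO mice it read 9.76 and 10.21 with vehicle and 9.84 and 9.94 at 2 h, and in ERaUtcKO mice 10.93, 10.84 and 10.82 with vehicle and 10.72, 10.88 and 10.78 at 2 h, overlapping in both lines. At 2 h after E2 the mutants stood above their littermates on every array, by 0.70 (adjusted p 0.00274; 20.6% of genes called) in Ex3aERKO mice and by 0.59 (adjusted p 1.14e-05; 26.9% called) in ERaUtcKO mice. The responses themselves differed by 1.05 ± 0.23 (adjusted p 0.00577) and by 0.70 ± 0.12 (adjusted p 0.000329). At 24 h the difference between responses in the ERaUtcKO set was 0.43 ± 0.12 (adjusted p 0.00972; 32.9% of genes called), but 0.17 (adjusted p 0.369) with centred arrays.

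After IGF1 the ERaUtcKO mice showed lower Nr3c1 at 2 h, with values of 10.35, 10.35 and 10.70, below every vehicle array (75.9% of vehicle, -0.40, adjusted p 0.00104). By 24 h it was back at 10.77, 10.83 and 10.84, among the vehicle values. In Ex3aERKO mice the 2 h values of 9.87 and 9.41 and the 24 h values of 9.89, 9.71 and 9.97 overlapped vehicle.

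**Figure D3:**
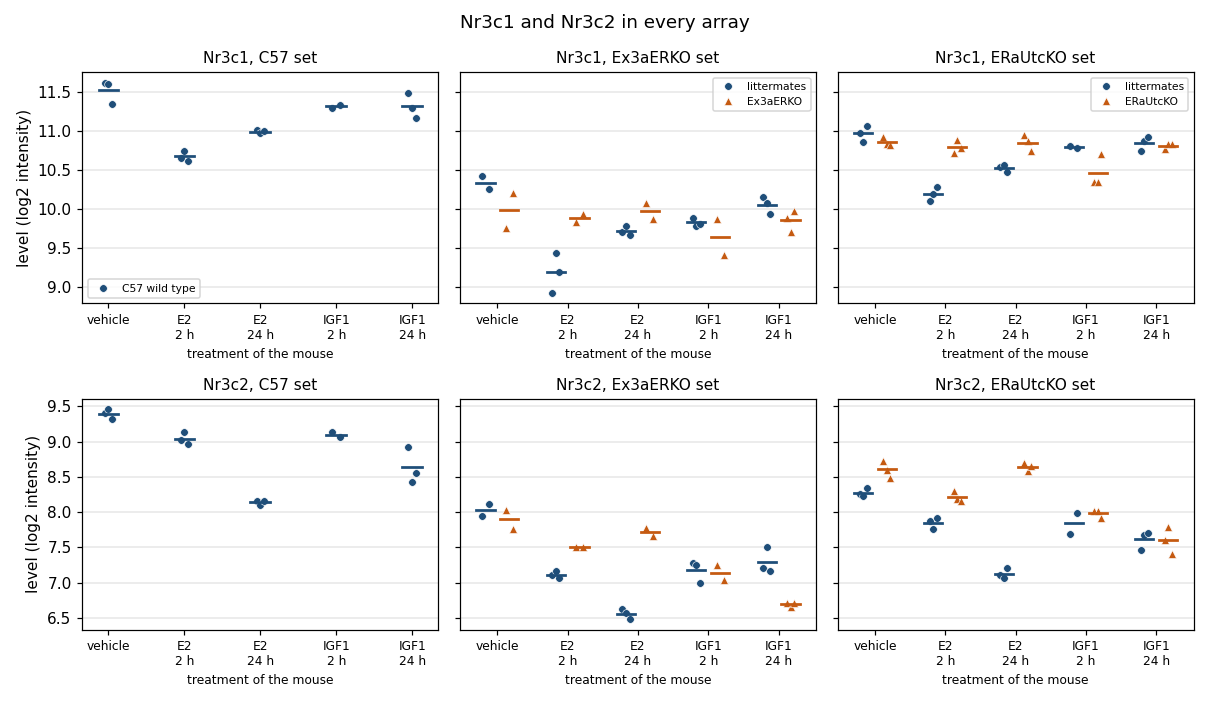
Deposited log2 level of Nr3c1 (upper panels) and Nr3c2 (lower panels) on each array, by treatment and mouse set; blue circles are wild types, orange triangles knockouts and horizontal lines group means. For Nr3c2 the wild-type groups at 24 h after E2 (means 8.14, 6.56 and 7.12) are the lowest of each set, while the knockout groups at that time (7.72 and 8.64) lie with their vehicle groups.

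Nr3c2, the mineralocorticoid receptor, was lower than vehicle in all 4 hormone groups of wild types and went on falling between 2 h and 24 h after E2. In C57 mice it read 9.40, 9.46 and 9.32 with vehicle, 9.02, 9.14 and 8.96 at 2 h after E2, and 8.16, 8.10 and 8.15 at 24 h. In Ex3aERKO littermates it went from 7.94 and 8.12 through 7.11, 7.16 and 7.07 to 6.63, 6.57 and 6.48. In ERaUtcKO littermates it went from 8.25, 8.23 and 8.34 through 7.87, 7.76 and 7.92 to 7.11, 7.06 and 7.20. None of these 3 groups overlapped another in any set. The pooled differences were -0.54 ± 0.08 at 2 h (68.7% of vehicle, adjusted p 2.5e-07) and -1.27 ± 0.08 at 24 h (41.5%, adjusted p 6.21e-17), with -0.73 between the 2 times (adjusted p 9.56e-11), where Nr3c1 and Esr1 had moved back up by 0.39 each.

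IGF1 was followed by a fall of Nr3c2 as well. The values at 2 h were 9.13 and 9.06 in C57 mice, 7.28, 7.25 and 7.0 in Ex3aERKO littermates, and 7.69 and 7.99 in ERaUtcKO littermates. At 24 h they were 8.93, 8.42 and 8.56, then 7.21, 7.51 and 7.16, then 7.46, 7.68 and 7.71, and all lay below the vehicle arrays of their sets. The pooled differences were -0.53 ± 0.08 (69.5% of vehicle, adjusted p 2.27e-06) and -0.69 ± 0.08 (61.8%, adjusted p 3.06e-09). At 2 h E2 and IGF1 differed by -0.02 (95% interval -0.18 to 0.15), and at 24 h Nr3c2 was lower after E2 by -0.57 ± 0.08 (adjusted p 1.23e-07).

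In the mutants Nr3c2 fell after IGF1, and no fall was called after E2. In Ex3aERKO uteri it read 8.03 and 7.76 with vehicle, 7.78 and 7.66 at 24 h after E2, and 6.71, 6.66 and 6.71 at 24 h after IGF1. In ERaUtcKO uteri the same 3 groups read 8.73, 8.60 and 8.49, then 8.70, 8.58 and 8.65, then 7.60, 7.79 and 7.40. The E2 arrays overlapped vehicle in both lines, and the IGF1 arrays were all lower. At 24 h after IGF1 Nr3c2 was at 43.4% of vehicle in Ex3aERKO mice (-1.20 ± 0.12, adjusted p 4.81e-06) and at 49.8% in ERaUtcKO mice (-1.01 ± 0.10, adjusted p 5.75e-08). At 2 h after IGF1 it was at 59.2% (7.25 and 7.03; -0.76 ± 0.13, adjusted p 0.000416; 15.6% of genes called) and at 64.9% (8.02, 8.01 and 7.91; -0.62, adjusted p 2.25e-05).

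For E2 at 24 h the responses of Nr3c2 in mutants and littermates differed by 1.29 ± 0.17 in the Ex3aERKO set (adjusted p 7.25e-05; 16.7% of genes called) and by 1.19 ± 0.14 in the ERaUtcKO set (adjusted p 7.28e-07). At that time Nr3c2 was at 223% of the littermate level in Ex3aERKO mice (41.6% of genes called) and at 287% in ERaUtcKO mice (46.5% called). For E2 at 2 h the responses differed by 0.53 (95% interval 0.16 to 0.90, adjusted p 0.0678) in the Ex3aERKO set and by 0.03 (-0.26 to 0.31, adjusted p 0.933) in the ERaUtcKO set, so the difference between genotypes was called at 24 h and not at 2 h. For IGF1 at 24 h the responses differed by -0.47 (95% interval -0.82 to -0.12, adjusted p 0.448; 0.0130% of genes called) and by -0.35 (-0.63 to -0.06, adjusted p 0.352; 0.0522% called), so a larger fall in the mutants was not called in either set. After IGF1 at 24 h Ex3aERKO mice stood at 66.0% of their littermates (-0.60, adjusted p 0.0017; 7.14% of genes called).

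**Figure D4:**
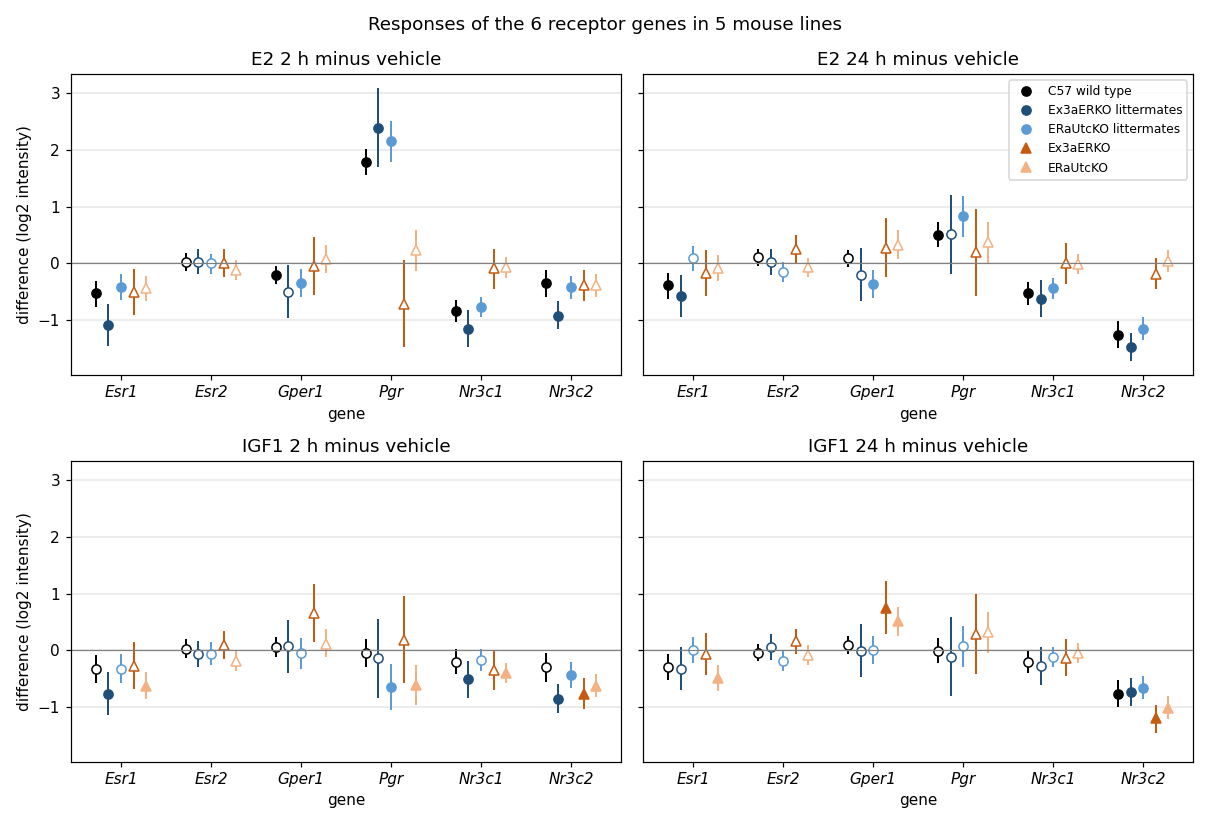
Log2 difference from vehicle of the 6 receptor genes in 4 panels, 1 for each hormone and time, with 95% intervals as bars; circles are wild types, triangles knockouts, filled symbols called at an adjusted p under 0.05. After E2 none of the knockout symbols is filled, and after IGF1 Nr3c2 is called in both knockout lines at both times.

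Counted over the 6 receptors, no E2 response was called in either mutant line at either time. In the limma fits 0 of 6 were called in Ex3aERKO mice (0.147% of all genes called at 2 h and 0 at 24 h) and 0 of 6 in ERaUtcKO mice (0.476% and 0). At an unadjusted p under 0.05 the counts were 2 and 1 in Ex3aERKO mice and 2 and 2 in ERaUtcKO mice. The 2 at 2 h were Esr1 and Nr3c2 in both lines. The share of all genes at an unadjusted p under 0.05 was not computed. Such counts, here and below, therefore have no background to be read against. Nr3c2 differed from vehicle by -0.39 in each line (adjusted p 0.422 and 0.0791), and Esr1 by -0.51 in Ex3aERKO mice and by -0.44 in ERaUtcKO mice (adjusted p 0.0785). The arrays of both genes at 2 h after E2 lay wholly below vehicle in both lines, with Nr3c2 at 7.51 on both E2 arrays of Ex3aERKO mice and at 8.30, 8.18 and 8.15 in ERaUtcKO mice. With only the upper part of the genes by mean level tested, both were called in ERaUtcKO mice (adjusted p 0.0489 for Esr1 and 0.0496 for Nr3c2). The Esr1 responses at 2 h after E2 in mutants and littermates differed by 0.59 (95% interval 0.04 to 1.14, adjusted p 0.208) in the Ex3aERKO set and by -0.02 (-0.34 to 0.30, adjusted p 0.955) in the ERaUtcKO set, neither called. After IGF1 the difference between mutant and littermate responses was called by limma for none of the 6 in either set or time (0 and 0.0130% of all genes in the Ex3aERKO set, 0.505% and 0.0522% in the ERaUtcKO set, at 2 h and 24 h). At an unadjusted p under 0.05 it was found for 0 and 2 of them in the Ex3aERKO set and for 0 and 3 in the ERaUtcKO set, respectively.

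The IGF1 calls in the mutants were 3 of 12 in Ex3aERKO mice and 7 of 12 in ERaUtcKO mice, over 6 genes at 2 times. Of all genes, 15.6% and 18.4% were called in the former at 2 h and 24 h, and 29.1% and 32.2% in the latter. The IGF1 calls lean on the spread shared across all groups of a set. Fitted on the 2 groups compared alone, the calls were lost for Nr3c2 at 2 h (adjusted p 0.123) and Gper1 at 24 h (0.198) in Ex3aERKO mice, and for Nr3c1 (0.0551) and Pgr (0.0887) at 2 h and Gper1 at 24 h (0.0537) in ERaUtcKO mice. The same holds for Nr3c2 in Ex3aERKO mice against littermates at 24 h after IGF1 (adjusted p 0.0592).

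Over the 42 wild-type arrays, after the mean of each mouse set was subtracted, the receptors varied together in part. Nr3c1 went with Esr1 (Pearson r 0.77) and with Gper1 (0.68), and against Pgr (-0.84). Nr3c2 was only weakly related to Pgr (-0.15) and to Esr1 (0.31). These are descriptions over arrays that share treatments, and carry no test. Among all genes, the closest in pattern were Mad2l1 for Pgr (0.97), Meis1 and Cyria for Nr3c1 (0.94), Ptpn13 for Esr1 (0.91) and Msx1os, an opposite-strand RNA gene, for Gper1 (0.79). Dcn, which is also on the stromal marker list, Nfat5 and Fgfr2 were closest to Nr3c2 (0.94 each). The most opposite were Sox9 for Nr3c1 (-0.94), Pik3r1 and Nr2f2 for Pgr (-0.93), and the proteasome subunit gene Psmd2 for Nr3c2 (-0.93).

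Markers of the cells that make up the uterus also differed between treatments and genotypes, not always in the direction of the receptors. At 2 h after E2 all 9 stromal markers measured were lower in pooled wild types (median -1.37), when Esr1, Nr3c1 and Nr3c2 were lower too. There 22.7% of all genes were called lower. The summed stromal level on the log2 scale lay between 18.12 and 18.30 with vehicle and between 17.61 and 17.73 after E2 in C57 mice. It lay between 18.79 and 18.81 against between 17.81 and 17.97 in Ex3aERKO littermates. In ERaUtcKO littermates it lay between 18.31 and 18.44 against between 17.90 and 18.03. At 2 h after IGF1 it was below vehicle too, at 17.84 to 17.86 in C57 mice. It was 17.82 to 17.99 then in Ex3aERKO littermates and 17.93 to 18.10 in ERaUtcKO littermates. In the mutants none of the 9 stromal markers was called by limma at 2 h after E2, as none of the receptors was (unadjusted p under 0.05 for 1 in Ex3aERKO mice and 1 in ERaUtcKO mice). Few genes were called there at all, 0.147% in Ex3aERKO mice and 0.476% in ERaUtcKO mice. At 24 h after E2, 9 of 12 epithelial markers were higher and 1 lower in wild types (median 1.73), beside 24.3% of all genes higher and 31.9% lower. Their summed levels were 16.07 to 16.56 against 13.65 to 14.46 with vehicle. In the mutants 0 of 12 were called by limma (unadjusted p under 0.05 for 0 in Ex3aERKO mice and 2 in ERaUtcKO mice). No gene of any kind was called in either line at that time, so the absence of calls is not particular to these markers. Nr3c2 fell in both mutants at 24 h after IGF1. Stromal markers there were 4 higher and 1 lower of 9 in Ex3aERKO mice (18.4% of all genes called). In ERaUtcKO mice 7 were higher and 1 lower (32.2% called). The summed stromal level went the other way there, from between 17.79 and 18.31 with vehicle to between 16.14 and 16.56 in Ex3aERKO mice and from between 18.03 and 18.10 to between 17.15 and 17.58 in ERaUtcKO mice. Smooth muscle markers were 8 higher of 8 at 24 h after IGF1 in pooled wild types (19.1% of all genes higher) and in ERaUtcKO mice, and 1 higher of 8 in Ex3aERKO mice. Their summed level lay between 17.82 and 18.12 with vehicle, between 19.05 and 19.13 at 24 h after E2 and between 19.24 and 19.37 at 24 h after IGF1 in ERaUtcKO littermates. In C57 mice the same groups lay between 18.88 and 19.02, 19.56 and 19.66, and 19.70 and 20.08, and ERaUtcKO mice went from between 17.80 and 18.37 to between 18.96 and 19.46 after IGF1. Genotypes differed without hormone too. With vehicle the summed epithelial level lay between 15.01 and 15.15 in Ex3aERKO mice and between 13.80 and 14.21 in littermates. The stromal level lay between 17.79 and 18.31 against between 18.79 and 18.81. In the ERaUtcKO set the epithelial ranges overlapped, and the stromal level was 18.03 to 18.10 in mutants against 18.31 to 18.44. The part of cell makeup in the receptor differences, between treatments or genotypes, was not tested.

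Genes that serve steroid receptors were followed in 8 lists with 129 measured members. Called higher and lower were 57 and 37 at 2 h after E2, 48 and 40 at 24 h, 59 and 22 at 2 h after IGF1, and 36 and 34 at 24 h. Over all genes the shares were, in that order, 17.1% and 22.7%, 24.3% and 31.9%, 16.8% and 18.9%, and 19.1% and 21.7%. In the mutants E2 called 6 higher and 0 lower at 2 h in Ex3aERKO mice and 17 and 0 in ERaUtcKO mice, and none at 24 h in either, where 23 and 6 had an unadjusted p under 0.05. Among all genes 0.147% and 0.476% were called at 2 h, and none at 24 h. IGF1 called 33 higher and 9 lower at 2 h and 25 and 15 at 24 h in Ex3aERKO mice, and 52 and 16, then 41 and 21, in ERaUtcKO mice. The shares of all genes called in either direction were 15.6% and 18.4%, then 29.1% and 32.2%.

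Chaperones and immunophilins, which hold the receptors ready for ligand, rose in every wild-type response. Of 13 measured, 12, 12, 12 and 11 were higher and 0 lower at 2 h and 24 h after E2 and at 2 h and 24 h after IGF1. In the same order, 17.1%, 24.3%, 16.8% and 19.1% of all genes were called higher. Fkbp4, an immunophilin that the progesterone receptor needs in the uterus, rose by 1.71 ± 0.14 (adjusted p 1.16e-13) at 2 h and by 1.63 ± 0.14 (adjusted p 3.72e-13) at 24 h after E2. It read 11.74 and 11.72 with vehicle and 13.71, 13.80 and 13.45 at 24 h after E2 in Ex3aERKO littermates, but 11.91 and 11.86 against 11.85 and 11.85 in the mutants. Those E2 responses differed by -1.95 ± 0.29 (adjusted p 0.000168), and in the ERaUtcKO set by -1.96 ± 0.25 (adjusted p 2.47e-06). Stip1, the co-chaperone that bridges HSP70 and HSP90, rose after IGF1 in both mutants as in wild types: by 1.88 ± 0.18 at 2 h in pooled wild types, by 1.95 ± 0.26 in Ex3aERKO mice and by 1.67 ± 0.17 in ERaUtcKO mice. The limma call in Ex3aERKO mice was lost when only the groups compared were fitted (adjusted p 0.0677).

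Coactivators and corepressors moved in both directions, 8 higher and 6 lower of 20 at 2 h after E2. All genes together gave 17.1% higher and 22.7% lower there. Nrip1, a corepressor and a known ERα target, rose by 3.57 ± 0.06 (adjusted p 2.66e-34) and was down to 0.33 ± 0.06 at 24 h. In C57 mice it went from 10.41, 10.22 and 10.17 to 13.73, 13.94 and 13.59. The rise was smaller in mutants than in littermates in both sets, with differences of -3.12 ± 0.20 (adjusted p 1.17e-08) and -2.78 ± 0.15 (adjusted p 1.82e-11). Nr2f2, the orphan receptor COUP-TFII and a marker of stroma, fell by 2.66 at 2 h (-2.66 ± 0.09, adjusted p 4.65e-25) and differed by -0.07 (adjusted p 0.624) at 2 h after IGF1. Ppargc1a, a coactivator of metabolic genes, fell in all 4 responses (-2.67, -1.50, -1.85 and -0.96).

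Enzymes that make or inactivate steroids before they reach a receptor included the partner of Nr3c2. Hsd11b2, which protects the mineralocorticoid receptor from glucocorticoids, rose by 3.07 ± 0.20 at 24 h after E2 (adjusted p 1.79e-16). It went from 6.96, 6.94 and 7.05 to 9.95, 9.93 and 10.27 in ERaUtcKO littermates and from 6.77 and 6.76 to 8.43, 8.53 and 9.26 in Ex3aERKO littermates. In C57 mice it went from 9.37, 8.80 and 9.02 to 13.18, 13.79 and 12.15. In the mutants the values with vehicle and at 24 h after E2 were 7.04, 7.18 and 7.23 against 6.91, 7.14 and 6.79 in ERaUtcKO mice, and 6.50 and 6.05 against 6.38 and 6.48 in Ex3aERKO mice. The E2 responses differed by -1.82 ± 0.38 in the Ex3aERKO set (adjusted p 0.00244) and by -3.26 ± 0.27 in the ERaUtcKO set (adjusted p 8.93e-09).

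At 24 h after E2, Nr3c2 was thus at its lowest and Hsd11b2 at its highest in wild types of all 3 sets, and neither was called in the mutants. After IGF1 the fall of Nr3c2 came with a smaller rise of Hsd11b2, by 0.90 ± 0.21 at 2 h (adjusted p 0.000676) and 0.95 ± 0.20 at 24 h (adjusted p 0.000169) in pooled wild types. By set, at 24 h after IGF1 Hsd11b2 read 10.56, 10.99 and 10.53 in C57 mice and 7.76, 7.84 and 8.05 in ERaUtcKO littermates, above every vehicle array, but 7.15, 6.66 and 6.81 in Ex3aERKO littermates, which overlap vehicle (0.10, adjusted p 0.913). In ERaUtcKO mice Hsd11b2 rose by 0.99 ± 0.19 at 24 h after IGF1 (adjusted p 0.000296), and in Ex3aERKO mice it differed by 0.48 (adjusted p 0.232). Hsd11b1, which works in the opposite direction and regenerates active glucocorticoid, fell by 0.82 at 24 h after E2 (-0.82 ± 0.10) and by 0.75 at 24 h after IGF1 (-0.75 ± 0.10). Hsd17b11, a 17-beta-hydroxysteroid dehydrogenase, and Akr1c14, a 3-alpha-hydroxysteroid dehydrogenase, separated the hormones at 2 h: they rose by 2.36 ± 0.09 and 1.45 ± 0.13 after E2 and fell after IGF1 (-1.02 ± 0.10 and -1.85 ± 0.14).

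**Figure D5:**
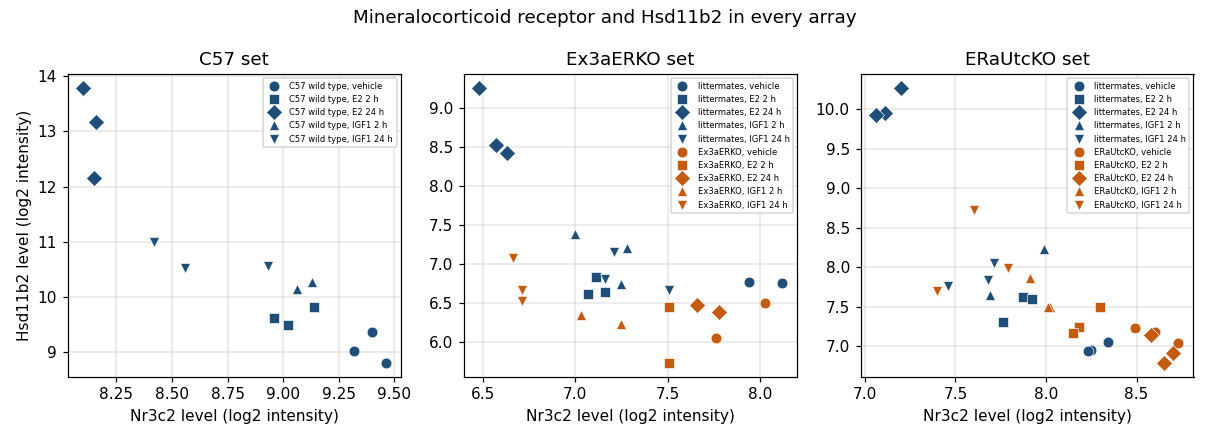
Log2 level of Nr3c2 (x axis) against log2 level of Hsd11b2 (y axis) on each array, in 1 panel per mouse set, with markers by treatment and colours by genotype (blue wild type, orange knockout). The wild types at 24 h after E2 sit apart at high Hsd11b2 and low Nr3c2 in each panel, and the knockouts at that time lie with the vehicle arrays.

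Targets of the receptors were read as lists of known genes. Of 16 oestrogen receptor targets, 13 rose and 2 fell at 2 h after E2 (median 3.09), and 9 rose and 1 fell at 2 h after IGF1 (median 0.47). Beside them, 17.1% of all genes were called higher and 22.7% lower at 2 h after E2, and 16.8% and 18.9% at 2 h after IGF1. Gadd45g, a stress-response gene, rose by 6.53 ± 0.22 after E2, and Ccn1, a secreted matrix protein, by 6.05 ± 0.39 after E2 and 3.38 ± 0.41 after IGF1 at 2 h. Later, at 24 h after E2, the secreted and surface proteins of the epithelium led, with Muc1 up by 4.43 ± 0.15 and Ltf by 3.87 ± 0.32. Greb1, an ERα cofactor, differed from vehicle by -0.08 ± 0.17 at 2 h after E2 in Ex3aERKO mice (adjusted p 0.985) and rose by 1.66 ± 0.12 in ERaUtcKO mice (adjusted p 3.28e-08). Both responses were below those of littermates (differences of -4.91 ± 0.22 and -2.83 ± 0.17). Of 17 progesterone receptor targets, 6 rose and 9 fell at 2 h after E2, when Pgr itself was at its highest. Errfi1, which is also on the corticosteroid list and is an inhibitor of epidermal growth factor receptor signalling, rose by 3.82 ± 0.13, and Ptch1, the hedgehog receptor, fell by 3.47 (-3.47 ± 0.20). The Ptch1 response in mutants and littermates differed by 3.76 ± 0.55 and 3.11 ± 0.39.

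Most of the listed corticosteroid targets, but not all, were called higher at 2 h in wild types, when Nr3c1 and Nr3c2 were lower. Of 20 genes on the list, 12 rose and 1 fell at 2 h after E2 in pooled wild types, where 17.1% of all genes were higher and 22.7% lower. At 2 h after IGF1 12 rose and 1 fell, beside 16.8% and 18.9% of all genes. Fkbp5, a feedback inhibitor of the glucocorticoid receptor, rose by 0.62 ± 0.10 after E2 (adjusted p 3.7e-06) and by 1.53 ± 0.11 after IGF1 (adjusted p 2.64e-14). Tsc22d3, the glucocorticoid-induced leucine zipper GILZ, was the one that fell at 2 h after E2 in pooled wild types. Angptl4, Klf9, Mt1, Per1, Scnn1b, Sult1a1 and Zbtb16 were not called there. In C57 mice alone 10 rose and 4 fell at 2 h after E2, Zbtb16 among the latter, where 29.5% of all genes were called. By 24 h the balance had turned in pooled wild types, with 4 higher and 11 lower after E2 and 3 and 9 after IGF1. The shares of all genes were then 24.3% and 31.9% after E2, and 19.1% and 21.7% after IGF1.

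The same list held all of the pathway genes called at 2 h after E2 in Ex3aERKO mice. E2 moved few genes there (0.147% of all genes called, and 0.476% in ERaUtcKO mice). Those 6 of 20 were Zbtb16, Scnn1a, Tsc22d3, Sult1a1, Fkbp5 and Nfkbia, with rises from 1.25 (Nfkbia, ± 0.24) to 4.03 (Zbtb16, ± 0.59, adjusted p 0.00695). In ERaUtcKO mice 8 of the 17 pathway genes called were on this list, and 5 of the first 6 were among them (5 of 6 and 5 of 8). The others were Dusp1, Mt2 and Sgk1. At an unadjusted p under 0.05 the list counted 18 of 20 in Ex3aERKO mice and 16 of 20 in ERaUtcKO mice. All pathway lists together, this one included, counted 36 and 49 of 129 there. The share of all genes at that threshold was not computed, so these counts have no background to be read against. None of the 20 was called by limma at 24 h in either line (unadjusted p under 0.05 for 4 and 2). These genes were chosen after their values were seen.

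Zbtb16, a transcription factor known for its response to glucocorticoids, read 8.22 and 7.77 with vehicle, 11.53 and 12.52 at 2 h and 8.23 and 7.59 at 24 h after E2 in Ex3aERKO mice. In ERaUtcKO mice it read 8.26, 8.31 and 8.28, then 12.50, 12.25 and 11.06, then 8.05, 7.57 and 7.74. Littermates at 2 h after E2 read 7.77, 8.54 and 7.81, and 8.75, 8.29 and 8.70, against vehicle values of 7.12 and 7.49, and 7.89, 7.34 and 7.56, and in both sets every E2 array lay above vehicle. Zbtb16 rose in the ERaUtcKO littermates too (0.98 ± 0.27, adjusted p 0.00664) and was not called in the Ex3aERKO littermates (0.73, adjusted p 0.438). In C57 mice Zbtb16 fell, from 8.59, 8.83 and 8.56 with vehicle to 7.85, 8.07 and 8.41 at 2 h after E2, and was called. In the mutants the rise was present at 2 h and not called at 24 h. It was 3.65 ± 0.27 in ERaUtcKO mice (adjusted p 3.28e-08), and the E2 responses differed between mutant and littermate by 2.67 ± 0.38 there (adjusted p 2.52e-05). In the Ex3aERKO set they differed by 3.30 ± 0.80 (adjusted p 0.0119), a call lost without vehicle replicate 3 of the littermates (3.11, adjusted p 0.0569) or of the mutants (3.07, adjusted p 0.0512), or without E2 replicate 3 of the mutants (2.80, adjusted p 0.0736).

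Tsc22d3 rose at 2 h after E2 in both mutant lines and fell in the ERaUtcKO littermates (-0.35 ± 0.13, adjusted p 0.0396). In ERaUtcKO mice it rose from 8.0, 8.39 and 8.40 with vehicle to 9.56, 9.29 and 9.22 at 2 h after E2 (1.09 ± 0.13, adjusted p 4.98e-05), while their littermates went from 7.93, 7.79 and 8.03 to 7.30, 7.74 and 7.65. In Ex3aERKO mice it read 8.14 and 7.80 with vehicle and at least 9.41 on both E2 arrays, and in their littermates 7.43 and 7.40 against 6.86, 7.61 and 6.80, which overlap and were not called (adjusted p 0.53). The responses differed by 1.44 ± 0.18 (adjusted p 5.93e-06) and by 2.06 ± 0.42 (adjusted p 0.00303).

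These calls in the mutants rest on few arrays and on the spread shared across groups. Fitted on the 2 groups compared alone, 0 of the 6 calls in Ex3aERKO mice remained (adjusted p from 0.288 for Zbtb16 to 0.49 for Tsc22d3). In ERaUtcKO mice 2 of the 8 remained, and Fkbp5, Tsc22d3, Dusp1, Mt2, Scnn1a and Sult1a1 were lost. With a replicate block, Fkbp5, Tsc22d3, Sult1a1 and Nfkbia were lost in Ex3aERKO mice and Mt2 and Scnn1a in ERaUtcKO mice. With any 1 array left out, the called members of the list numbered between 0 and 4 of 20 in Ex3aERKO mice and between 4 and 7 in ERaUtcKO mice. In Ex3aERKO mice the adjusted p of Zbtb16 was 0.0928 without vehicle replicate 3 (difference 3.81) and 0.0964 without vehicle replicate 2 (4.25). At 2 h after IGF1 Zbtb16 rose as well, by 1.87 ± 0.26 in pooled wild types (adjusted p 1.21e-07) and by 3.59 ± 0.27 in ERaUtcKO mice (adjusted p 3.8e-10), with 12.19, 11.69 and 11.75 on the mutant arrays, and differed by 1.22 ± 0.59 in Ex3aERKO mice (adjusted p 0.198). All of these 2 h values are set against vehicle taken at 24 h.

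Other nuclear receptors moved in both directions after both hormones. Of 30 measured, 7 rose and 11 fell at 2 h after E2, where 39.8% of all genes were called, and 7 rose and 6 fell at 2 h after IGF1, where 35.7% were. Nr4a1, an immediate-early orphan receptor, rose by 5.12 ± 0.44 after E2 and 3.77 ± 0.47 after IGF1. Pparg, the adipogenic receptor, rose by 4.42 ± 0.30 after E2. Nr1d1, a receptor of the circadian clock, fell in both (-2.45 ± 0.16 and -1.61 ± 0.17) against vehicle taken at the later time. Of 7 membrane progesterone receptors, 1 rose and 4 fell at 2 h after E2, among them Pgrmc1 (-0.77 ± 0.10, adjusted p 2.49e-08) and Paqr6 (-0.39 ± 0.07, adjusted p 7.33e-06).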

How the data were processed

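Total RNA was hybridised as labelled cDNA to Affymetrix arrays, per the labels' protocols. The authors deposited log2 values for 72688 probe sets on 68 arrays; their background correction, normalization and summary are not given in the sources used here. The platform annotation listed 32750 probe sets. Those of several genes (1534) and those outside it (39938) were left out, and symbols were updated through RefSeq. A gene with several probe sets (438 genes) kept the one with the highest mean, which left 30664 genes, 19208 of them protein coding, with no filter on level. Array medians ran from 6.43 to 6.60 on C57 arrays, 5.82 to 6.15 in the Ex3aERKO set and 6.26 to 6.62 in the ERaUtcKO set, so comparisons stayed within a set or had set as a term, without further scaling. Arrays give no depth, and their number limits the precision.

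Linear models came from limma 3.58.1 under R 4.3.3 (lmFit and eBayes, two-sided, Benjamini-Hochberg adjustment) on the 42 wild-type arrays and on each set, and were tested on simulated data. Python 3.11.15 with pandas 2.3.3, numpy 2.4.6 and matplotlib 3.10.9 made the summaries and figures. Interaction terms compared mutant with littermate responses. The members and lists were chosen with earlier results of these data known. All 6 receptors were named, and from each list up to 2 called genes per direction in a pooled response and up to 3 in an interaction. Genes closest in pattern passed over symbols typical of predicted, clone-named, microRNA and small nucleolar RNA genes; other RNA genes stayed in. Alternatives were centring each array on its median, quantile normalization, only genes above the median by mean level, a variance trend, a replicate block, each array left out, and only the groups compared. A fit without C57 arrays, and all alternatives for list genes, were added after seeing the data.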

Additional observations from a re-analysis of the deposited data

Results flagged for a closer look

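The response to E2 differed between mutants and their littermates for Pgr, Nr3c1 and Nr3c2 in both sets and for Gper1 in the ERaUtcKO set, each by the interaction term of the limma fit, which tests the difference of the responses itself. The value is the mutant response minus the littermate response on the log2 scale. For Pgr at 2 h it was -3.11 in the Ex3aERKO set and -1.92 in the ERaUtcKO set. For Nr3c1 at 2 h it was 1.05 and 0.70. For Nr3c2 at 24 h it was 1.29 and 1.19.

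In the ERaUtcKO set at 24 h after E2 the term was also called for Nr3c1 (0.43) and for Gper1 (0.69 ± 0.17, adjusted p 0.0035). Gper1 read 6.48, 6.52 and 6.59 in littermates and 7.11, 7.10 and 6.99 in mutants at that time, with no overlap. Its value was 0.42 both with centred arrays (adjusted p 0.0808) and with quantile normalization (adjusted p 0.0963).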

How the results depend on the processing

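Counts of called receptors left the range of 1.5 times in ERaUtcKO littermates with centred arrays (6 in place of 12). With only the groups compared they left it in ERaUtcKO mice (4 in place of 7) and Ex3aERKO mice (1 in place of 3). Ex3aERKO littermates gave 7 to 12 with 1 array left out. Without vehicle replicate 3 their count left the range too (7 in place of 11). The Esr2 difference at 24 h after E2 in pooled wild types, -0.01, turned to 0.20 with centred arrays (adjusted p 0.000168) and 0.10 with quantile normalization (adjusted p 0.0496), at a level below background. Centring moved the median of all genes at 24 h after E2 from -0.07 to 0.14 in pooled wild types. The cause was not tested. Of 276 differences of single receptors, centring lost 25 calls and gained 8, quantile normalization lost 10 and gained 5 (each beside the Esr2 call above), and only the groups compared lost 15 and gained 6. Replicate numbers did not pair the samples (mean correlations of same-numbered deviations -0.08, 0 and -0.01). The replicate block lost 3 calls and gained 2. It moved Gper1 to an adjusted p of 0.0709 in C57 mice at 2 h after E2, for example, and Esr1 in C57 mice to 0.0155 at 2 h after IGF1. No receptor had several probe sets, so their mean was not run.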

Other observations

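Liver genes were measured as a check on other tissues, and 4 were on the arrays. Their summed log2 level ran from 9.02 to 17.59 on C57 arrays, from 8.78 to 13.80 in ERaUtcKO littermates and from 9.74 to 17.94 in ERaUtcKO mice, but only from 7.28 to 7.85 over the Ex3aERKO set. The high C57 values were those with vehicle (15.70 to 17.59) and at 2 h after E2 (12.16 to 15.23), against 9.02 to 10.23 in the other 3 C57 groups, so the vehicle group stands apart among C57 mice. High values in ERaUtcKO mice were those with vehicle (11.78 to 16.10) and at 2 h after IGF1 (11.12 to 17.94), against 9.74 to 12.18 in their other groups. Those at 2 h after IGF1 belong to a group in which Esr1, Pgr, Nr3c1 and Nr3c2 were called lower. In ERaUtcKO littermates the vehicle arrays ran from 9.89 to 13.80. In pooled wild types 4 of 4 liver genes were lower at both times after E2 (22.7% and 31.9% of all genes lower). After IGF1 3 of 4 were lower at both times (18.9% and 21.7%). Without the C57 arrays the pooled calls against vehicle that were lost were Esr1 at 24 h after E2 and Nr3c1 at 24 h after IGF1, and Gper1 at 24 h after E2 was gained (-0.28, adjusted p 0.0179). Fat genes, 4 of them measured, varied as well. Their summed level lay between 12.07 and 13.65 at 2 h after E2 in ERaUtcKO mice, against 9.20 to 11.87 with vehicle. In the other lines the 2 h E2 range overlapped vehicle, in ERaUtcKO littermates with a highest value of 14.06 against 10.75. At 2 h after IGF1 in Ex3aERKO mice the fat level was 12.01 to 13.14, against 9.06 to 12.02 with vehicle. The part of liver or fat tissue in the differences above was not tested.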
